A study of Mus musculus with 8 samples.

Results

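The genes described here copy DNA in S phase: 40 genes of the DNA replication machinery and of the switch into S phase, measured in liver tumors and control livers of mice. They were listed by name, and each was read from the brightest array probe whose transcript accession belongs to it. Of the 40 genes, 38 were among the 14312 genes with enough signal to be tested. Orc1, the largest subunit of the origin recognition complex, and Ccne2, the second E-type cyclin, were not well above background on any of the 8 arrays in either channel and have no ratio.

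Replication begins with licensing, in which the origin recognition complex, Cdc6 and Cdt1 load the Mcm2-7 helicase ring onto DNA in G1. In S phase, Cdc45 and the GINS complex join the ring and activate it, primase and the DNA polymerases copy the strands, and the sliding clamp PCNA holds the polymerases on DNA. Ribonucleotide reductase and thymidylate synthesis supply the nucleotides, and chromatin assembly factors and Uhrf1 with Dnmt1 copy nucleosomes and DNA methylation behind the fork. Many of these genes are targets of E2F transcription factors, and hepatocytes of resting adult liver are mostly out of the cell cycle.

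The 8 tumors were hepatocellular carcinomas (HCC) of male mice labelled miR-122 KO, which lack the main microRNA of hepatocytes. The control RNA came from livers of male mice labelled miR-122 floxed, described in the labels as age-matched wild type, and both shared a mixed background of C57BL/6J and 129S/Svj. The labels give no age, do not say whether miR-122 was removed in all cells or in liver alone, and knockout liver without tumor was not analysed here. Tumor was labelled with Cy5 and control with Cy3 on every array, so the effects of dye, genotype and tumor cannot be told apart. The labels do not say whether tumors or controls shared an animal or whether control RNA was pooled, so the p-values measure the spread between these arrays.

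Each value is a log2 ratio of tumor over control, where 1 is 2-fold, given with the SD over 8 arrays. Channel levels are log2 brightness after normalization and are compared between channels of the same probe only. A gene was called higher or lower where its mean ratio was at least 2-fold and its adjusted p was under 0.05 (limma, Benjamini-Hochberg over all genes tested). The number of arrays limits the precision. In the tumor channel 38.5% to 51.9% of probes were well above background and in the control channel 45.1% to 54.3%. Array 8 was the dimmest in Cy5, with an upper quartile of 188 against 322 to 513 on the others. Its control channel held skeletal muscle transcripts: 5 tested muscle markers summed to a level of 64100 there against 614 to 719 in the other controls. The tumor channel of array 8 held them at a lower level, 3900 against 631 to 749 in the other tumors. Hepatocyte markers were well above background in both channels for all 10 genes of the list, with 3 lower in tumor and 0 higher.

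Most replication genes were higher in tumor, many of them by less than 2-fold. Of the 38 tested genes, 12 were called higher (31.6%) against 9.54% of all genes, and 1 was called lower, Mcm10, against 5.94% of all genes. The median log2 ratio was 0.74, which is 1.67-fold, against 0.03 over all genes. Without the size requirement, 26 of the 38 genes (68.4%) were higher at an adjusted p under 0.05, against 28.7% of all genes, and 2, Mcm10 and Orc6, were lower, against 25.1%. Of these 26, 14 differed by less than 2-fold, and 6 of the 14 had ratios between 0.9 and 1. Of the 38, 2 (Cdc6 and Hells) were tested only because their tumor signal was well above background. Over the 36 genes measured on at least 4 arrays in both channels, 12 were called higher (33.3%, against 9.75% of all genes so measured) and 24 were higher at an adjusted p under 0.05 (66.7%, against 28.1%). All 8 tumor levels lay above all 8 control levels for 13 of the 38 genes (34.2%), against 8.33% of all genes, and the reverse held for 1, Mcm10, against 8.41%. The ratio was above 0 on all 8 arrays for 19 genes, against 17.1% of all genes, and below 0 on all 8 for 2, against 16.6%. Without array 8, 18 of the 38 were called higher, and without array 1, 10, while the count over all genes went from 1366 to 1533 and to 1293.

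**Figure D1:**
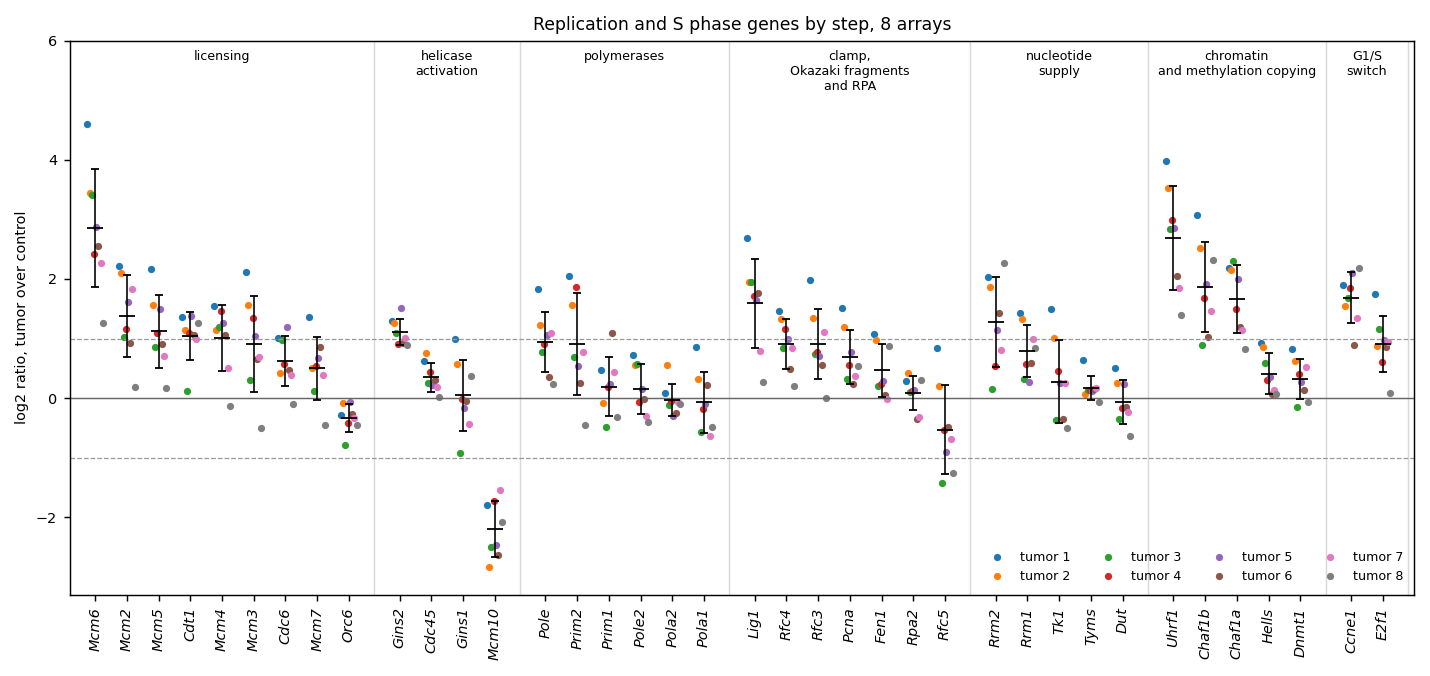
Log2 ratio of tumor over control (vertical axis) for the 38 tested genes, grouped by step of replication. Each point is 1 array, bars are the mean and SD over 8 arrays, and dashed lines mark 2-fold; Mcm6 (2.85) and Uhrf1 (2.68) have the highest means and Mcm10 (-2.20) the lowest.

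The start regions of these genes were searched for letters of the E2F motif without use of the ratios. Many of the genes are E2F targets, so a high share could be foreseen from the list. RefSeq promoter windows of GRCm38.p6, from 250 bases before to 50 after the annotated start, were found for 34 of the 40 genes; Mcm4, Gins1, Gins2, Prim2, Pole and Ccne2 had none. The letters TTTCGCGC, TTTGGCGC, TTTCCCGC and TTTGCCGC, which are forms of the E2F motif, were searched on both strands. At least 1 form was present in 14 of the 34 genes (41.2%), against 4.26% of the 11376 tested genes with a window and 2.60% of all 27025 genes with one; counted by window, the shares were 34.1% of 41 and 2.26% of 32851. Of the other replication genes described further on, 22 of 85 (25.9%) held it too. The letters CCAAT were present in 19 of the 34 (55.9%), against 42.4% of the tested genes. The E2F letters were present in 5 of the 10 called higher that had a window and in 8 of the 22 that were not called, and they were also in the window of Orc1, which was not tested. A match describes letters in the window, not binding.

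The windows below were chosen for the results they go with: Mcm6, Uhrf1 and Mcm5, called higher, with E2F letters, and Mcm10, the gene called lower, in whose window these letters were not found. Capitals mark the matches to the E2F letters and to CCAAT on either strand, and each sequence runs 5′ to 3′ along the gene.
Mcm6: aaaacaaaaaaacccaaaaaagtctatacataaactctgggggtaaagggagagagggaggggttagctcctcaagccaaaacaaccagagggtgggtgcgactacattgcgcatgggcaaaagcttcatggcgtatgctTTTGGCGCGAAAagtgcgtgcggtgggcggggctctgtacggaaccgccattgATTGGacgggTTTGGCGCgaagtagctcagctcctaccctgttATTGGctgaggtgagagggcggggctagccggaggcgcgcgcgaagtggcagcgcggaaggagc
Uhrf1: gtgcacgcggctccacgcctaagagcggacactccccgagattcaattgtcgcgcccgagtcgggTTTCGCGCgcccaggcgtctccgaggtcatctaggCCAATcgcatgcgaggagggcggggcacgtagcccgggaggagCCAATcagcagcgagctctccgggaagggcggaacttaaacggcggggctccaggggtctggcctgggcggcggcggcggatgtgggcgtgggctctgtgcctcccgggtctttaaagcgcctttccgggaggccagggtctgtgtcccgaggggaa
Mcm5: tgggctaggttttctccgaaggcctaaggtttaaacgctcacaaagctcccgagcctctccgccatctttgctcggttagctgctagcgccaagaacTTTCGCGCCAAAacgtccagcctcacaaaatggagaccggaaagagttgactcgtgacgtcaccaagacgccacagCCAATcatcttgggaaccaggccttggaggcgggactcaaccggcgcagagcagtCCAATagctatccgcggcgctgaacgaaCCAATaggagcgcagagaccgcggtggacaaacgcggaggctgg
Mcm10: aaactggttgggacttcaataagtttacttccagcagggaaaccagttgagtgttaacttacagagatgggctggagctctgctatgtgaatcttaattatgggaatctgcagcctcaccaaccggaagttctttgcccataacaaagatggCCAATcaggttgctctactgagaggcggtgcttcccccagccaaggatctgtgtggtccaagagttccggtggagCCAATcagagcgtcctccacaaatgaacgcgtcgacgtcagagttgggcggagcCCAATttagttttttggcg
The Mcm6 window lies at chr1:128359656-128359955, minus strand, and holds 3 E2F matches, at -110, -106 and -47 from the start, the first pair overlapping. The Uhrf1 window, the second of 2 annotated starts, lies at chr17:56304063-56304362, plus strand, with an E2F match at -185. The Mcm5 window, at chr8:75109259-75109558, plus strand, has overlapping E2F matches at -153 and -149. The Mcm10 window lies at chr2:5012742-5013041, minus strand, and holds CCAAT at -98, -23 and 32. It ends in TTTGGCG, the beginning of the form TTTGGCGC, and a match that crosses the end of the window could not be found.

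**Figure D2:**
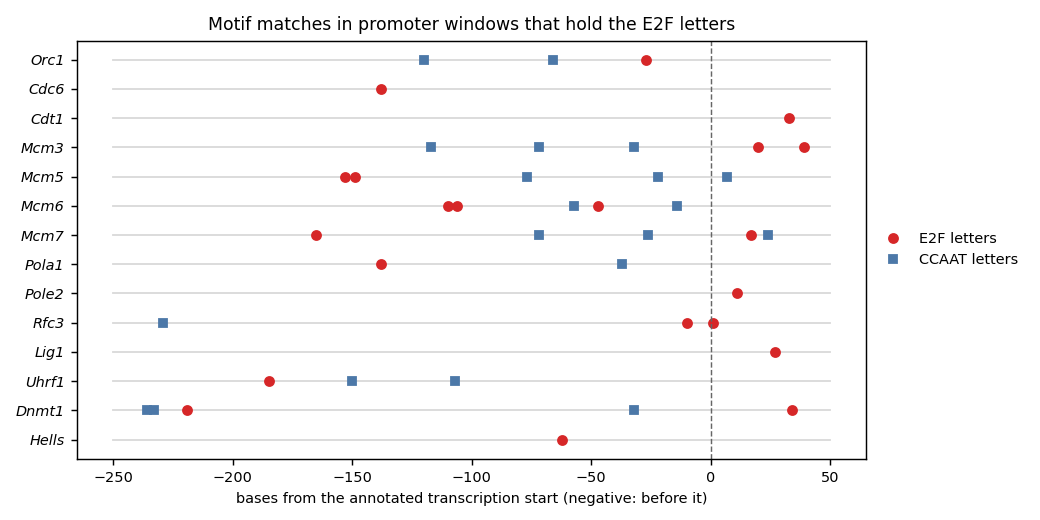
Distance in bases from the annotated start (horizontal axis) of E2F letters (red) and CCAAT letters (blue) in the windows of the 14 genes that hold E2F letters. Mcm6 has 3 E2F matches, the most of the windows drawn, and Cdc6, Cdt1, Pole2, Lig1 and Hells hold no CCAAT in the window drawn.

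In licensing, 5 of 9 tested genes were called higher, against 9.54% of all genes, and 0 lower. At an adjusted p under 0.05, 8 of the 9 were higher, against 28.7% of all genes, but Cdc6, among these 8, was tested only through its tumor signal. Each of the others was measured in both channels, where the share over all genes was 28.1%. Mcm6, a subunit of the replicative helicase ring, had the largest rise of all 38 genes. Its ratios ran from 1.25 to 4.60 with a median of 2.72, and tumor levels from 10.896 to 13.44 against control levels from 8.62 to 10.04. Every tumor lay above every control. The mean rise was 2.85 ± 0.99 (SD, n = 8), which is 7.23-fold (limma adjusted p = 6.45e-05).

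The other subunits of the same ring rose less. Mcm2 rose by 1.38 ± 0.685 (2.60-fold, adjusted p = 5.87e-04), with tumor levels from 7.82 to 9.37 and control levels from 7.11 to 7.63 that did not overlap. Mcm5 rose by 1.12 ± 0.61 (2.17-fold, adjusted p = 0.00109), and its tumor levels (8.17 to 10.03) also cleared its control levels (7.49 to 8.005). The call of Mcm5 rested on array 1, without which the ratio was 0.97 (adjusted p = 0.00178). Mcm4 had a ratio of 1.005 ± 0.555 (adjusted p = 0.00121), just at the size required, from -0.13 in tumor 8 to 1.55 in tumor 1. Its levels overlapped, and its call was lost at a ratio under 1 without any 1 of arrays 1 to 6 (0.93 to 0.996). Mcm3 had a ratio of 0.90 ± 0.81 and Mcm7 of 0.50 ± 0.525, with adjusted p of 0.0127 and 0.0315. Both were above 0 on 7 arrays and below 0 on array 8, and neither reached 2-fold. Without array 8, Mcm3 was called, at 1.102 (adjusted p = 0.00194).

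The difference between subunits held within arrays. The Mcm6 ratio was above that of each of the other 5 subunits on all 8 arrays, by 0.43 to 2.39 over the highest of them and by 1.80 ± 0.48 over their median. Across the 6 subunits the median ratio was 2.15 on array 1, between 0.70 and 1.57 on arrays 2 to 7, and 0.02 on array 8. These comparisons are between probes, each read against its own control, and were chosen after the values were seen.

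The loaders of the ring moved differently from each other. Cdt1, which brings the helicase to the origin, rose by 1.05 ± 0.40 (2.07-fold, adjusted p = 2.01e-04). The ratio of tumor 3 was 0.11, and those of the other 7 tumors lay between 0.99 and 1.38. Tumor levels (10.04 to 11.01) and control levels (9.01 to 9.93) did not overlap. Cdc6, the ATPase that works with Cdt1, was read from a probe with a signal well above background in 6 tumors and 0 controls. On that probe the mean tumor level of Cdc6 was at least 1.53-fold higher, with ratios from -0.098 to 1.195. Its second, dimmer probe was well above background in 5 tumors and 1 control, with a ratio of 0.55 ± 0.47. Such a bound sets the tumor mean against the higher of the control signal and the lowest signal well above background on that array. Orc6, the smallest subunit of the origin recognition complex, lay below 0 on all 8 arrays, from -0.79 to -0.065, with a mean of -0.34 ± 0.23 (adjusted p = 0.0128) that is under the size required.

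In helicase activation, the 4 genes took different courses. Gins2, a GINS subunit, rose by 1.11 ± 0.22 (2.16-fold, adjusted p = 1.45e-05), with ratios from 0.895 to 1.51, the narrowest spread of the 12 genes called higher. Its tumor levels (7.61 to 8.62) lay above all control levels (6.59 to 7.11). Gins1, another subunit of the same complex, had a ratio of 0.045 ± 0.60 (adjusted p = 0.858), above 0 on 3 arrays and below on 5. Gins2 exceeded Gins1 on all 8 arrays, by 0.31 to 2.03. Cdc45, the third part of the active helicase, had a ratio of 0.35 ± 0.245 (adjusted p = 0.0123), above 0 on all 8 arrays and under 2-fold. The Cdc45 probe was near background, with mean levels of 6.77 in tumor and 6.42 in control, so the size of its ratio is not well determined.

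The probe of Mcm10, a scaffold that helps to activate the helicase and to engage primase, was lower in tumor. Its ratio ran from -2.84 to -1.55 with a median of -2.27, and tumor levels (10.77 to 11.99) lay below all control levels (13.04 to 13.87). The mean fell by 2.20 ± 0.48 on the log2 scale (4.59-fold, adjusted p = 6.63e-06). The array holds 1 probe for Mcm10 under its accession NM_027290, so this fall rests on a single probe, and what else that probe may detect was not tested. The call held under all 23 alternatives tried.

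In the polymerase group, 0 of 6 genes were called, and 2 were higher at an adjusted p under 0.05 (33.3%, near the 28.7% of all genes). Pole, the catalytic subunit of the leading-strand polymerase epsilon, had a ratio of 0.94 ± 0.50 (adjusted p = 0.00112), above 0 on all 8 arrays, from 0.24 to 1.835. Its accessory subunit Pole2 stood at 0.15 ± 0.42 (adjusted p = 0.388), and Pole exceeded Pole2 on all 8 arrays by 0.20 to 1.40. The Pole2 probe was near background, with mean levels of 6.73 in tumor and 6.58 in control. Its ratio and this difference are therefore not well determined. Prim2, the large subunit of primase, had a ratio of 0.91 ± 0.85 (adjusted p = 0.0156), from -0.45 in tumor 8 to 2.04 in tumor 1. The small subunit Prim1 stood at 0.19 ± 0.50 (adjusted p = 0.337). The subunits of polymerase alpha, which extends the primers, had ratios of -0.07 ± 0.52 (Pola1, adjusted p = 0.737) and -0.03 ± 0.26 (Pola2, adjusted p = 0.812). The Pola2 probe was near background too, with mean levels of 6.66 in tumor and 6.69 in control, so its ratio is not well determined. Pole was called without array 8 (1.04) or array 6 (1.02), and Prim2 likewise (1.105 and 1.005). A second probe of Pole was well above background in 0 tumors and 0 controls and was not tested.

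Among the clamp, its loader and the factors that join Okazaki fragments, 1 of 7 was called higher, a count near the 9.54% of all genes. At an adjusted p under 0.05, without the size requirement, 5 of the 7 were higher (71.4%, against 28.7% of all genes). All 8 tumor levels lay above all 8 control levels for 3 of the 7 (42.9%, against 8.33%). Lig1, the ligase that seals the fragments, rose by 1.59 ± 0.75 (3.02-fold, adjusted p = 4.04e-04). Its ratios ran from 0.27 in tumor 8 to 2.695 in tumor 1, and tumor levels (9.79 to 11.80) did not overlap control levels (8.89 to 9.52). Pcna, the clamp itself, had a ratio of 0.69 ± 0.45 (1.61-fold, adjusted p = 0.00369), with tumor levels (11.52 to 12.68) clear of control levels (10.92 to 11.35) though under 2-fold.

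The clamp loader subunits parted. Rfc3 (0.90 ± 0.59, adjusted p = 0.00290) and Rfc4 (0.91 ± 0.42, adjusted p = 5.57e-04) were above 0 on all 8 arrays and under 2-fold, and both were called without array 8 (1.03 and 1.01). Rfc5 stood at -0.53 ± 0.75 (adjusted p = 0.0783), with 6 of 8 arrays negative, and lay below Rfc4 on every array. The second probe of Rfc4 gave 0.29, so its size depends on the probe. Fen1, the flap nuclease, had a ratio of 0.46 ± 0.44 (adjusted p = 0.0228), and Rpa2, which coats single-stranded DNA, of 0.09 ± 0.285 (adjusted p = 0.514).

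In nucleotide supply, 1 of 5 genes was called higher, a count near the 9.54% of all genes. Rrm2, the S phase subunit of ribonucleotide reductase, rose by 1.28 ± 0.76 (2.43-fold, adjusted p = 0.00150), with ratios from 0.15 in tumor 3 to 2.27 in tumor 8. Its tumor levels (9.90 to 11.35) and control levels (8.88 to 10.55) overlapped. Rrm1, the large subunit, had a ratio of 0.79 ± 0.43 (adjusted p = 0.00141), above 0 on all 8 arrays with no overlap of levels, under 2-fold. Rrm2 exceeded Rrm1 on 5 of 8 arrays.

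The enzymes of thymidylate supply did not pass. Tyms, thymidylate synthase, had a ratio of 0.17 ± 0.20 (adjusted p = 0.124), and Dut, the dUTPase, of -0.07 ± 0.37 (adjusted p = 0.674). The Tyms probe was near background, with mean levels of 6.64 in tumor and 6.47 in control, so the size of its ratio is not well determined. Tk1, the salvage kinase, had a ratio of 0.28 ± 0.70 (adjusted p = 0.308), with 1.499 and 1.001 on arrays 1 and 2 and -0.50 to 0.45 on the others. Control levels of Tk1 ran from 9.61 to 11.50 and tumor levels from 10.26 to 11.31, so the spread of the controls was the wider.

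Genes that copy chromatin and DNA methylation had the highest median of the steps, 1.66 (3.16-fold). Of these, 3 of 5 were called higher, against 9.54% of all genes. All 5 were higher at an adjusted p under 0.05, against 28.7% of all genes, but Hells was tested only through its tumor signal. Each of the others was measured in both channels, where the share over all genes was 28.1%. Uhrf1, which binds hemimethylated DNA and recruits Dnmt1, had ratios from 1.39 to 3.98 with a median of 2.85. Every tumor level (7.945 to 10.22) lay above every control level (6.24 to 6.79), and the mean rise was 2.68 ± 0.87 (6.42-fold, adjusted p = 4.53e-05). The control channel was well above background on 7 of 8 arrays. A second probe of Uhrf1 gave 0.18 and was not tested, with a signal well above background in 1 tumor and 0 controls. Dnmt1, the maintenance methyltransferase, had a ratio of 0.32 ± 0.34 (1.25-fold, adjusted p = 0.0431), above 0 on 6 arrays, and lay below Uhrf1 on all 8, by 1.33 to 3.15.

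Both measured subunits of chromatin assembly factor 1, which deposits histones behind the fork, rose with no overlap of levels. Chaf1b rose by 1.86 ± 0.75 (3.64-fold, adjusted p = 1.64e-04) and its second probe gave 1.71. Chaf1a rose by 1.66 ± 0.57 (3.16-fold, adjusted p = 7.45e-05). Chaf1b exceeded Chaf1a on 5 of 8 arrays, so their order differed between arrays. Hells, a chromatin remodeler needed for DNA methylation, reached a signal well above background in 5 tumors and 0 controls. The mean tumor level was at least 1.33-fold higher, with ratios from 0.061 to 0.922.

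At the G1/S switch, cyclin E1 (Ccne1), the activator of Cdk2, rose by 1.68 ± 0.43 (3.21-fold, adjusted p = 1.68e-05). Ratios ran from 0.89 in tumor 6 to 2.18 in tumor 8. Tumor levels (9.546 to 10.84) and control levels (8.11 to 9.575) overlapped only through control 6, which lay above tumor 7. A second, dimmer probe of Ccne1 gave 0.73. E2f1, the transcription factor of this switch, had a ratio of 0.91 ± 0.47 (1.88-fold, adjusted p = 9.72e-04), above 0 on all 8 arrays, with tumor levels (8.85 to 9.81) clear of control levels (7.91 to 8.83). Without array 8 it was called, at 1.025 (adjusted p = 2.364e-04).

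**Figure D3:**
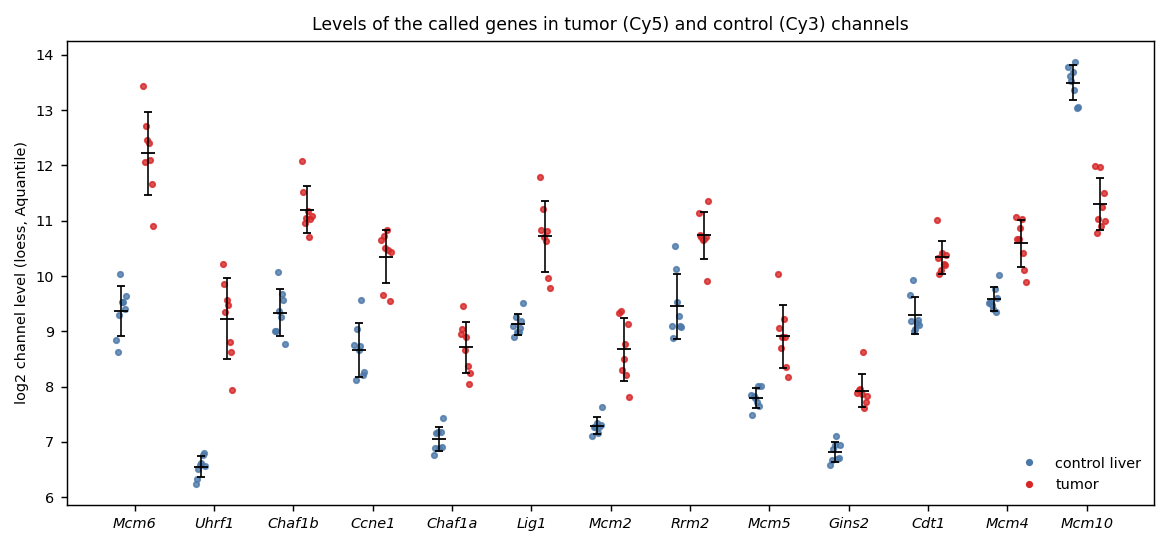
Log2 channel level (vertical axis) of the 13 called genes in control liver (Cy3, blue) and tumor (Cy5, red); points are arrays and bars the mean and SD over 8. The channels do not overlap except for Ccne1, Rrm2 and Mcm4, and Mcm10 alone is lower in tumor; heights are not comparable between genes.

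Tumors differed in how far the whole group was shifted. The median ratio over the 38 genes was 1.39 on array 1, 1.07 on array 2, between 0.33 and 0.69 on arrays 3 to 7, and 0.07 on array 8. Array 1 had the highest ratio for 26 of the 38 genes, against 15.9% of all genes, and array 8 the lowest for 22, against 29.7% of all genes. Of the 38 genes, 24 had a ratio of at least 1 on array 1, against 14.6% of all genes. On array 8, 6 did, against 8.44% of all genes. The dim Cy5 signal of array 8 and its muscle transcripts, higher in the control than in the tumor channel, stand beside its low values. Their part in these values was not tested. Rrm2 (2.27) and Ccne1 (2.18) had their highest ratio on array 8.

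Both channels took part in these differences. The tumor channel of array 1 lay above the mean of each gene by a median of 0.45 and that of array 8 below it by a median of -0.32. The control channels of arrays 1 and 2 lay at -0.21 and -0.22 and that of array 8 at 0.15. Array 1 held the lowest control level for 12 of the 38 genes and array 2 for 15, the latter against 16.3% of all genes. With arrays 1 and 2 averaged as 1 replicate, 11 of the 38 genes were called higher and the median was 0.65. In the upper row of the slide (arrays 1 to 4) 17 genes were called higher, with a median of 0.90, and in the lower row (arrays 5 to 8) 10, with a median of 0.47. Calls over all genes fell in the same way, from 1630 to 849.

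**Figure D4:**
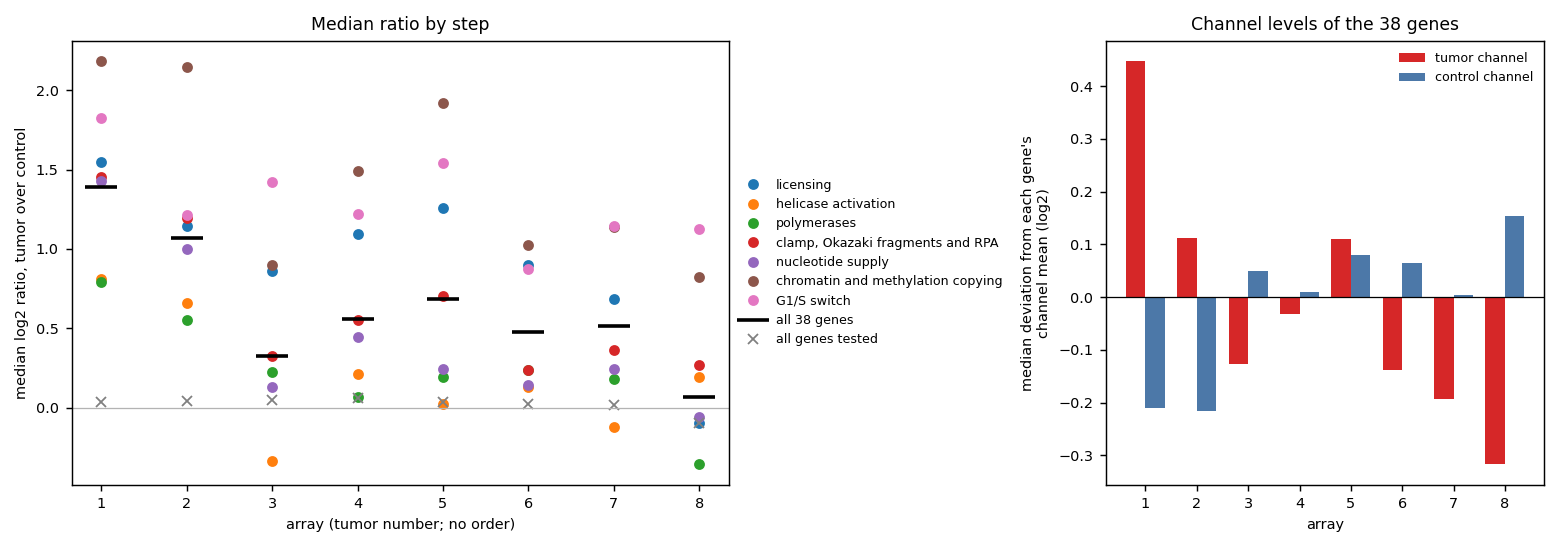
Left: median log2 ratio on each array for each step (colours), all 38 genes (black bar) and all genes tested (grey cross). Right: median deviation of the 38 genes from their own channel mean, for tumor and control channels; array 1 is highest in tumor (0.45) and array 8 lowest (-0.32), and the controls of arrays 1 and 2 are the lowest.

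Markers of dividing cells moved with these genes. Of 10 proliferation markers, 9 were tested, 8 were called higher and 0 lower, with a median of 1.93. Over all genes 9.54% were called higher and 5.94% lower. On all 8 arrays, 5 of the 9 were well above background in both channels. Each of these 5 was called higher, against 9.75% of all genes measured in both channels. The others, Top2a among them, were tested only through their tumor signal, so their sizes and the median over all 9 are not well determined. Mki67 rose by 2.92 ± 0.78 (7.58-fold, adjusted p = 1.57e-05), from 1.40 in tumor 8 to 4.08 in tumor 1, the arrays that also held the lowest and highest medians of the replication genes. Top2a, the topoisomerase of late S phase and mitosis, had a ratio of 1.51 ± 0.71 (adjusted p = 4.23e-04) against a control that was well above background on 2 of 8 arrays, so its size is not well determined. In bulk RNA, more dividing cells and more RNA per dividing cell cannot be told apart. Markers of other cells that can divide were measured beside them: for T and NK cells 1 of 9 was called higher and the summed level was 4820 to 9570 in tumors and 5020 to 9000 in controls. For B and plasma cells 1 of 6 was called higher, at 15400 to 34700 in tumors and 8420 to 12400 in controls, and Cd79a and Pax5 were not tested for want of signal. For macrophages 3 of 9 were higher and 3 lower, for neutrophils 4 of 7 were higher, and for stellate cells and fibroblasts 6 of 10 were higher. Macrophage markers summed to 19700 to 67900 in tumors and 16800 to 46400 in controls. Neutrophil markers summed to 23200 to 60500 in tumors and 15000 to 26000 in controls. For stellate cells and fibroblasts the sums were 17700 to 98200 in tumors and 35600 to 48300 in controls. Of bile duct markers 3 of 6 were higher, of endothelial markers 1 of 8 was higher and 2 lower, and of erythroid markers 1 of 6 was lower. Bile duct markers summed to 2800 to 101000 in tumors and 1740 to 6860 in controls. Endothelial markers summed to 6630 to 12500 in tumors and 17000 to 23300 in controls. For erythroid markers the sums were 53900 to 206000 in tumors and 69700 to 97000 in controls. In lists this short, a count of 1 called gene is near the share over all genes. The part of these cells in the replication genes was not tested.

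Other genes of the pathway, from a list of 106 of which 100 were tested, were called higher in 17 cases (17.0%, against 9.54% of all genes) and lower in 1 (Shmt1, against 5.94%), with a median of 0.19. Of these, 94 were measured in both channels and 15 of the 94 were called higher. Without array 1, 13 of the 100 were called higher. Among the factors of helicase activation, Donson rose by 1.33 ± 0.39 (2.52-fold, adjusted p = 4.26e-05), and Mtbp, a partner of the firing factor Ticrr, had a ratio of 1.04 ± 0.43 (adjusted p = 2.82e-04) whose call was lost without array 1, 5 or 6 (0.96 to 0.99). Dbf4, the activator of the Cdc7 kinase, had a ratio of 0.53 ± 0.35 (adjusted p = 0.00548), and Gmnn, the inhibitor of Cdt1, of 0.74 ± 0.74 (adjusted p = 0.0221), both under 2-fold. In licensing 0 of 9 further genes were called. In the fork protection group 4 of 11 were called higher, among them Timeless (1.39 ± 0.29, 2.62-fold, adjusted p = 9.76e-06), the nuclease Exo1 and Dtl, which directs the destruction of Cdt1. Exo1 had a signal well above background in 7 tumors and 0 controls. Its mean tumor level was at least 2.22-fold higher, with ratios from -0.068 to 2.323. Dtl was well above background in 7 tumors and 1 control, so its ratio of 1.11 ± 0.57 is not well determined. Both were tested only through their tumor signal, and both calls were lost without array 1 (0.98 each).

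The small polymerase delta subunit Pold4 rose by 1.19 ± 0.47 (adjusted p = 2.09e-04) and was the 1 called of 8 further polymerase genes. Chtf18, of an alternative clamp loader, had a ratio of 1.045 ± 0.38 (adjusted p = 1.61e-04), 1 called of 13, and lost its call without array 1 (0.975). Asf1b, a histone chaperone of dividing cells, rose by 1.46 ± 0.55 (2.76-fold, adjusted p = 1.34e-04), 1 called of 12. These 3 counts, of 8, 13 and 12 genes, are near the share over all genes. In nucleotide supply, cytidine deaminase Cda rose by 1.81 ± 0.78 (adjusted p = 2.34e-04) and Shmt1, the cytosolic serine hydroxymethyltransferase that feeds thymidylate synthesis, fell by 1.48 ± 0.735 (2.79-fold, adjusted p = 5.74e-04), below 0 on all 8 arrays. In arrays 5 to 8 alone the ratio of Shmt1 was -1.26 (adjusted p = 0.0513). Rrm2b was not tested.

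Among 29 tested genes around the G1/S switch, 7 were called higher (24.1%, against 9.54% of all genes) and 0 lower (against 5.94%). Cyclin A2 (Ccna2), the S phase cyclin, rose by 2.42 ± 0.73 (5.35-fold, adjusted p = 3.16e-05), with tumor levels from 7.99 to 10.09 above all control levels (6.53 to 6.84). Myc rose by 2.28 ± 0.41 (4.84-fold, adjusted p = 2.98e-06) and the phosphatase Cdc25a, which activates Cdk2, by 1.82 ± 0.43 (adjusted p = 1.14e-05). The kinase Cdk2 itself had a ratio of -0.13 ± 0.24 (adjusted p = 0.273). The CDK inhibitors Cdkn2b (1.66 ± 1.02, adjusted p = 0.00168) and Cdkn1a (1.61 ± 1.27, adjusted p = 0.00639) were called higher too. The other CDK inhibitor genes of the list were not called, with ratios from 0.075 to 0.93. The ratio of Cdkn2b was 0.90 in arrays 5 to 8 alone (adjusted p = 0.103). Cdkn1a, which encodes p21, had ratios of 0.42, 0.55 and -0.34 on arrays 1, 2 and 4 and of 1.63 to 3.26 on the others, with the highest on array 8. Its control levels ran from 8.12 to 11.17 and its tumor levels from 10.30 to 13.62, so both channels varied widely and overlapped. In arrays 1 to 4 alone its ratio was 0.70 with an adjusted p of 0.206.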

How the data were processed

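RNA of 8 tumors and of control liver was measured on 8 Agilent arrays of 2 colours on 1 slide; per the labels, tumors carried Cy5 and controls Cy3. The deposited median signals and backgrounds are intensity values, and so are the deposited processed signals, which per the file headers had background subtracted, trends removed and dyes normalized. The deposited log10 ratios of these processed signals were exactly 0 at 24.2% to 30.4% of spots and were not used for tests. Agilent Feature Extraction is named by the submitters' processing notes (10.9) and by the file headers (10.9.1.1).

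Signals were corrected with normexp (offset 50) and normalized by loess within each array, giving control and outlier spots weight 0, and arrays were not scaled to each other (R 4.3.3, limma 3.58.1). Spots of a probe were averaged. Channel levels were taken after loess and Aquantile normalization. Of 55681 probes, 26582 could be named by matching their accession to the RefSeq annotation of GRCm38.p6. Tested probes had a signal well above background in the tumor or the control channel of 4 or more arrays, and the brightest tested probe stood for each of 14312 genes. Mean ratios were tested against 0 with lmFit and eBayes and adjusted over all genes by Benjamini-Hochberg; the procedure was tested on simulated data. No spot was saturated. Probe sequences were not analysed here.

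The genes and lists were chosen with earlier results of these data known. Named are all 40 genes, up to 4 called genes per step of the other replication genes with the largest ratios, Cdkn1a, Cdk2, Ccna2, Dbf4, Gmnn and Rrm2b, and Mki67 and Top2a. A gene that this rule picks is not reported here. Alternatives were other background and normalization settings, filters, probe rules, variance models, the slide row, arrays left out and, chosen after seeing the data, counts over genes measured in both channels.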

Additional observations from a re-analysis of the deposited data

Results flagged for a closer look

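In 3 of 59 genes 1 array stood apart from the other 7 by Dixon's criterion for the gap over the range; chance alone picks about 1 in 20 such groups. Cdt1 had a log2 ratio of 0.111 in tumor 3, with the next lowest at 0.988. Pola2 had 0.548 in tumor 2, with the next highest at 0.085. Tyms had 0.638 in tumor 1, with the next highest at 0.174.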

How the results depend on the processing

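The 59 named genes with a ratio were compared over 23 alternatives, and 1275 of 1351 values kept their direction and their side of the call, 31 gained a call, 26 lost one and 19 changed sign. Of the 38 replication genes, 10 to 18 were called higher with arrays left out in turn (12 with all arrays), 16 with processed signals and 15 with an offset of 16, and 1 was called lower under each of the 23 alternatives planned. Counting only genes measured in both channels, an alternative chosen after seeing the data, left 12 of 36. Row 2 of the slide alone gave 849 genes called higher over all genes, and 11 higher and 0 lower among the other replication genes. With processed signals 1533 genes were called lower, 3 of them among the other replication genes; with an offset of 16, 2 of the latter were. The E2F share with TTTCGCGC alone was 23.5% of genes, against 0.694% of tested genes. Cdt1 lost its call in row 1 alone (0.924), and Cdc6 (2.58) and Hells (1.56) were called with processed signals.

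The values that changed sign were all uncalled. Gins1 was -0.137 with processed signals, -0.038 with array weights, -0.066 in row 2, -0.06 with arrays 1 and 2 averaged and -0.09 to 0.183 with arrays left out in turn. Pola1 was 0.107 in row 1, 0.092 without arrays 7 and 8 and -0.204 to 0.009 with arrays left out in turn. Pola2 was 0.116 in row 1 and -0.114 to 0.008 with arrays left out in turn. Pole2 was -0.142, Rpa2 -0.061 and Tk1 -0.088 in row 2. Dut was 0.065 in row 1, 0.055 without arrays 7 and 8 and -0.151 to 0.013 with arrays left out in turn. The causes were not tested. Each array is 1 sample that holds its own tumor and control, so the test of ratios was already paired by array. Probes near background, such as those of Cdc6 and Hells, give bounds only. Those of Cdc45, Pola2, Pole2 and Tyms were dim in both channels, and the sizes of their ratios are not well determined.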
